A study of Mus musculus with 8 samples.

Results

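The genes described here are 9 products of cytokine signalling through JAK2 and STAT5: the PIM kinases Pim1, Pim2 and Pim3, the feedback inhibitors Socs1, Socs2, Socs3 and Cish, the cytokine Osm and the transcriptional inhibitor Id1. They were taken by symbol from the feature table, and all 9 were found among 31054 features. The series asks what Gli1 of blood-forming cells does in myelofibrosis driven by JAK2V617F. Bone marrow cells were read by single-cell RNA sequencing in droplets with the 3' chemistry of 10x Genomics, version 3.1, in which each captured molecule is counted once by its unique molecular identifier (UMI).

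The samples were 4 mRNA libraries. They came from Gli1 knockout marrow with JAK2V617F, wild type marrow with JAK2V617F, Gli1 knockout marrow with JAK2WT and wild type marrow with JAK2WT. JAK2V617F is the constitutively active kinase of myeloproliferative neoplasms, and JAK2WT, the unmutated kinase, was the control vector, so the controls also carry a JAK2 retrovirus. Donors were 8 weeks old, and their transduced cells went into female B6.SJL recipients of 8 to 10 weeks that had received 10.5 Gy of irradiation. Marrow was taken 112 days after transplantation. Magnetic depletion against TER119, B220, CD3, GR1 and CD11b came first, then pooling of 3 mice per group and a sort for viable lineage-negative cells with and without GFP. The depletion sets which mature cells remain, and irradiated recipients can keep cells of their own. A library is 1 sample, so n = 1 per group, no difference below has a replicate check, and no test was possible. Every range printed in brackets is a 95% interval for counting error and nothing else.

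When a cytokine receptor is engaged, the kinase JAK2 phosphorylates STAT5, which enters the nucleus and switches on a set of immediate targets. Cish and the SOCS genes encode SH2 domain proteins that bind the activated receptor or kinase and shut the signal down, which makes them a negative feedback loop. PIM proteins are serine/threonine kinases without a regulatory domain, so their activity follows their abundance, and they favour survival and protein synthesis. Osm encodes oncostatin M, a cytokine of the interleukin 6 family, and Id1 encodes a helix-loop-helix protein that blocks differentiation factors from binding DNA.

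The 4 libraries, in the order given above, held 8762, 5907, 7155 and 12376 cell barcodes. Their totals were 114847114, 59165347, 84063880 and 72458173 UMIs. The filters left 5989, 3437, 3799 and 7226 cells; a median cell had 13841, 13101, 17266 and 4410 UMIs, so the wild type JAK2WT library was the shallowest per cell. Any pair of libraries shared 4 to 14 barcodes. Gli1 had 5, 2, 4 and 0 UMIs, too few to check the knockout on its own transcript. Xist, the transcript of the inactive X chromosome, had 335, 36608, 1023 and 78124 UMIs, while the sum over 4 genes of the Y chromosome was 11925, 0, 9089 and 1. The genotypes therefore also differed in the sex of most cells, and the 2 differences cannot be told apart in any comparison of Gli1 knockout with wild type.

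Cells fell into 29 clusters, of which 6 stayed unnamed. A class name below means that its clusters resemble that type by their markers. Unnamed clusters held 6.40% of the kept cells in knockout JAK2V617F and 4.16% in wild type JAK2V617F marrow. With JAK2WT they held 38.4% in knockout and 35.1% in wild type marrow, and these cells enter no class value. Unnamed cluster 13, nearest to the GMP markers but shallow at a median of 1399 UMIs, had 231, 54, 717 and 245 cells. Among the classes with at least 40 cells in every library were stem and multipotent progenitors (HSC/MPP) with 2467, 567, 655 and 306 cells, and granulocyte-monocyte progenitors and promyelocytes (GMP) with 934, 602, 629 and 550. Monocyte-like cells numbered 565, 200, 534 and 995, and natural killer and innate lymphoid cells 730, 210, 207 and 194. Mast cell and basophil-like cells numbered 401, 209, 89 and 123, and erythroid cells 60, 1240, 50 and 83. In each of these 24 sums at least 10 of the class's 11 to 15 markers reached 20 CPM, the unit used throughout for a gene's summed UMIs relative to all UMIs of the same cells. Pf4, a platelet gene, was among the leading genes of HSC/MPP cluster 11. Over the HSC/MPP class Pf4 measured 52.3, 72.1, 37.5 and 381 CPM, so the wild type JAK2WT library stood apart there. The part of this in the HSC/MPP ratios below was not tested.

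The genes lie on separate chromosomes except for one pair (GRCm38, GENCODE M21). Pim1 is at chr17:29490753-29496112, Pim2 at chrX:7878262-7883432 and Pim3 at chr15:88862186-88865726, all on the plus strand. Socs1 is at chr16:10782240-10785536, Socs2 at chr10:95385362-95417180 and Socs3 at chr11:117966079-117970047, all on the minus strand. Cish is at chr9:107296026-107302784, Osm at chr11:4236420-4241026 and Id1 at chr2:152736251-152737410, on the plus strand. RefSeq promoter windows of 300 bases (GRCm38.p6, 250 before to 50 after the start) were held for 6 of the 9: Pim1, Pim2, Pim3, Socs1, Socs3 and Cish. They were searched on both strands for TTCNNNGAA, the palindromic letters that STAT5 is known to favour. The letters stood in the windows of Cish and Socs3, 2 of these 6 genes, and in 8.30% of all 32851 windows. The 2 stretches of 30 bases that hold them are printed because these genes are the classical feedback targets, with the matches in capitals.
Cish: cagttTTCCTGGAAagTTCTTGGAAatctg
Socs3: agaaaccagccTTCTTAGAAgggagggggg
The Cish stretch, chr9:107296654-107296683 on the plus strand, holds 2 matches, which begin at the RefSeq start and 11 bases after it, inside an annotated untranslated exon of 1 of 5 GENCODE transcripts. Windows with 2 or more matches were 0.457% of all. The Socs3 stretch, chr11:117969502-117969531 on the minus strand, holds 1 match beginning 154 bases before the RefSeq start, inside the span of a GENCODE transcript and in no exon of the 3 annotated. A match is a description of the letters and not evidence of binding.

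Pim1, the most abundant of the 9 in the 6 classes, was higher with JAK2V617F in erythroid cells, GMP, monocytes, neutrophils and mast cell and basophil-like cells. Natural killer and innate lymphoid cells gave ratios near 1 as a class and mixed ones by cluster. The widest gap was erythroid. Erythroid Pim1 measured 196 CPM (222 UMIs) in Gli1 knockout marrow with JAK2V617F, against 28.6 CPM (22 UMIs) with JAK2WT. In wild type marrow it measured 164 CPM (2910 UMIs) with JAK2V617F, against 29.8 CPM (38 UMIs) with JAK2WT. The ratio was 6.85 (4.41 to 11.2) in knockout and 5.51 (4.01 to 7.81) in wild type marrow, so both JAK2V617F libraries lay well above both controls.

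The erythroid class had 2 clusters, and Pim1 was higher with JAK2V617F within each. Cluster 9, rich in globin, held 30, 719, 13 and 24 cells, and cluster 10, led by the carbonic anhydrase gene Car1, held 30, 521, 37 and 59, in the order knockout JAK2V617F, wild type JAK2V617F, knockout JAK2WT, wild type JAK2WT. In cluster 9 the Pim1 ratio of JAK2V617F over JAK2WT was 9.41 (4.46 to 23.8) in knockout and 3.54 (2.21 to 6.10) in wild type marrow. In cluster 10 it was 3.97 (2.24 to 7.47) and 4.87 (3.16 to 7.93) in the same order. The 15 erythroid markers differed over the class, with sums of 50163, 28447, 11617 and 14954 CPM in the order of the cell numbers. Within cluster 10 those sums were 7815, 7932, 6866 and 6347 CPM. The part of erythroid stage in the Pim1 ratios was not tested.

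In GMP, Pim1 measured 171 CPM in knockout marrow with JAK2V617F and 80.0 CPM with JAK2WT, a ratio of 2.14 (2.02 to 2.26). The wild type values were 197 CPM with JAK2V617F and 45.1 CPM with JAK2WT, a ratio of 4.38 (3.97 to 4.84). The JAK2WT libraries were lowest in each of GMP clusters 1, 2 and 4, where the ratio lay between 1.80 and 1.83 in knockout and between 3.06 and 4.76 in wild type marrow. The 11 neutrophil markers summed to 726, 1180, 1068 and 14624 CPM in GMP, so the wild type JAK2WT library stood apart there, and the part of this in the wild type ratio was not tested.

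Monocytes had 237 CPM of Pim1 in knockout marrow with JAK2V617F, against 74.4 CPM with JAK2WT. In wild type marrow they had 211 CPM with JAK2V617F, against 84.7 CPM with JAK2WT. The 2 monocyte clusters were shared unequally, with 449, 190, 286 and 418 cells in cluster 3 and 116, 10, 248 and 577 in cluster 22. Within cluster 3 alone the Pim1 ratio was 3.49 (3.21 to 3.81) in knockout and 3.41 (3.08 to 3.79) in wild type marrow, nearly the same in both genotypes.

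Neutrophils, all in cluster 16, had 262 CPM of Pim1 in knockout marrow with JAK2V617F and 123 CPM with JAK2WT, where only 25 cells were present. Their wild type values were 219.6 CPM with JAK2V617F and 107 CPM with JAK2WT. The ratio was 2.13 (1.42 to 3.33) in knockout and 2.06 (1.64 to 2.62) in wild type marrow. HSC/MPP started from a high level and differed less. There Pim1 measured 340.1 CPM in knockout marrow with JAK2V617F, against 270.0 CPM with JAK2WT, and 273 CPM in wild type marrow with JAK2V617F, against 196 CPM with JAK2WT. These ratios, 1.26 (1.21 to 1.31) and 1.39 (1.27 to 1.52), were smaller than those of GMP, monocytes, neutrophils and erythroid cells in the same genotype.

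Natural killer and innate lymphoid cells, which depend on interleukins 7 and 15 acting through STAT5, had high Pim1 in every library. The levels were 303 CPM in knockout JAK2V617F, 376 CPM in wild type JAK2V617F, 328 CPM in knockout JAK2WT and 371 CPM in wild type JAK2WT marrow. The ratio of JAK2V617F over JAK2WT was 0.924 (0.810 to 1.06) in knockout and 1.01 (0.829 to 1.24) in wild type marrow, and both intervals include 1. Clusters of the 6 classes were compared where each library of a pair had at least 10 cells and the pair 20 UMIs. Clusters of other classes and unnamed ones were not counted. Of 13 such clusters, Pim1 was higher with JAK2V617F in 11 in knockout and in 12 in wild type marrow. The lower ones were clusters 15 and 19 in knockout and cluster 20 in wild type marrow, all natural killer and innate lymphoid. In cluster 20 the wild type values were 162 CPM (19 UMIs) with JAK2V617F and 331 CPM (20 UMIs) with JAK2WT, a ratio of 0.490 (0.247 to 0.966), while the knockout ratio there was 1.47 (0.961 to 2.33). The wild type ratio was 1.19 (0.783 to 1.79) in cluster 15 and 1.09 (0.847 to 1.41) in cluster 19, so the class value averages clusters that differ.

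**Figure D1:**
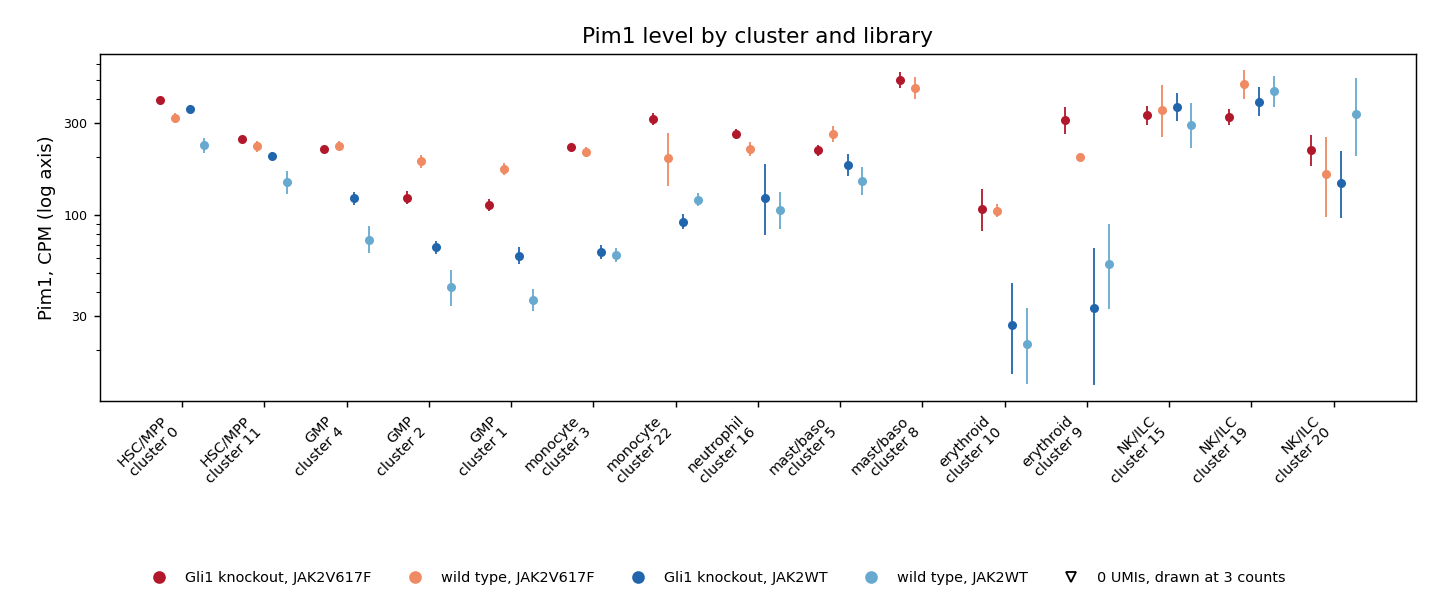
Pim1 level in CPM on a log axis for 15 clusters (x axis), 1 point per library with its exact 95% Poisson interval, Gli1 knockout with JAK2V617F at the left of each group and wild type with JAK2WT at the right. The JAK2V617F points sit above the JAK2WT points in the GMP, monocyte, neutrophil and erythroid clusters, while the points of the 3 NK/ILC clusters intermingle.

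Pim2 and Pim3 encode the other two kinases of the family. Pim2 was mainly lymphoid: in natural killer and innate lymphoid cells it measured 43.0 CPM in knockout JAK2V617F, 47.7 CPM in wild type JAK2V617F, 61.4 CPM in knockout JAK2WT and 39.1 CPM in wild type JAK2WT marrow. In HSC/MPP it lay between 7.41 and 12.4 CPM, and in GMP and monocytes below 3 CPM. Pim3 lay between 8.62 and 32.5 CPM in the 6 classes. In GMP it measured 22.9 CPM with JAK2V617F and 17.8 CPM with JAK2WT in knockout marrow, and 22.8 CPM with JAK2V617F and 12.02 CPM with JAK2WT in wild type marrow. The GMP ratio was 1.29 (1.13 to 1.47) in knockout and 1.90 (1.54 to 2.35) in wild type marrow. By cluster, Pim3 was higher with JAK2V617F in 9 of 10 in wild type marrow, 3 of them with an interval above 1, and in 5 of 11 in knockout marrow, where every interval included 1. Neutrophils had little Pim3, 2.56 CPM in knockout and 2.15 CPM in wild type marrow with JAK2V617F.

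Cish, whose protein binds cytokine receptors at the sites STAT5 needs, was read in JAK2V617F erythroid cells and not in control erythroid cells. In knockout marrow it measured 21.2 CPM (24 UMIs) with JAK2V617F and had 0 UMIs with JAK2WT. Wild type erythroid cells had 29.5 CPM (522 UMIs) with JAK2V617F and 0 UMIs with JAK2WT. Set against the 3 counts that a count of 0 allows per library, the measured Cish level was 5.43-fold in knockout and 12.5-fold in wild type marrow. These values leave out the counting error of the JAK2V617F level, so they are not lower limits. The controls held only 50 and 83 erythroid cells, so a low level there was not detectable at this depth.

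Thinned to 2000 UMIs per cell, 5.17% (1.08 to 14.4) of erythroid cells in knockout marrow and 5.41% (4.19 to 6.86) in wild type marrow with JAK2V617F held a Cish UMI. Without thinning the wild type share was 28.9%, and 0 control cells held one. Control erythroid cells had 0 of 43 and 0 of 81 thinned cells with one, which allows up to 8.22% and 4.45%. GMP, a class low in Cish, gave 0.217%, 0.333%, 0.479% and 0 after thinning, in the order knockout JAK2V617F, wild type JAK2V617F, knockout JAK2WT, wild type JAK2WT. The median depth of the GMP, between 19134 and 32850.0 UMIs over the libraries, was above that of the erythroid cells, between 11662 and 15560 UMIs.

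**Figure D2:**
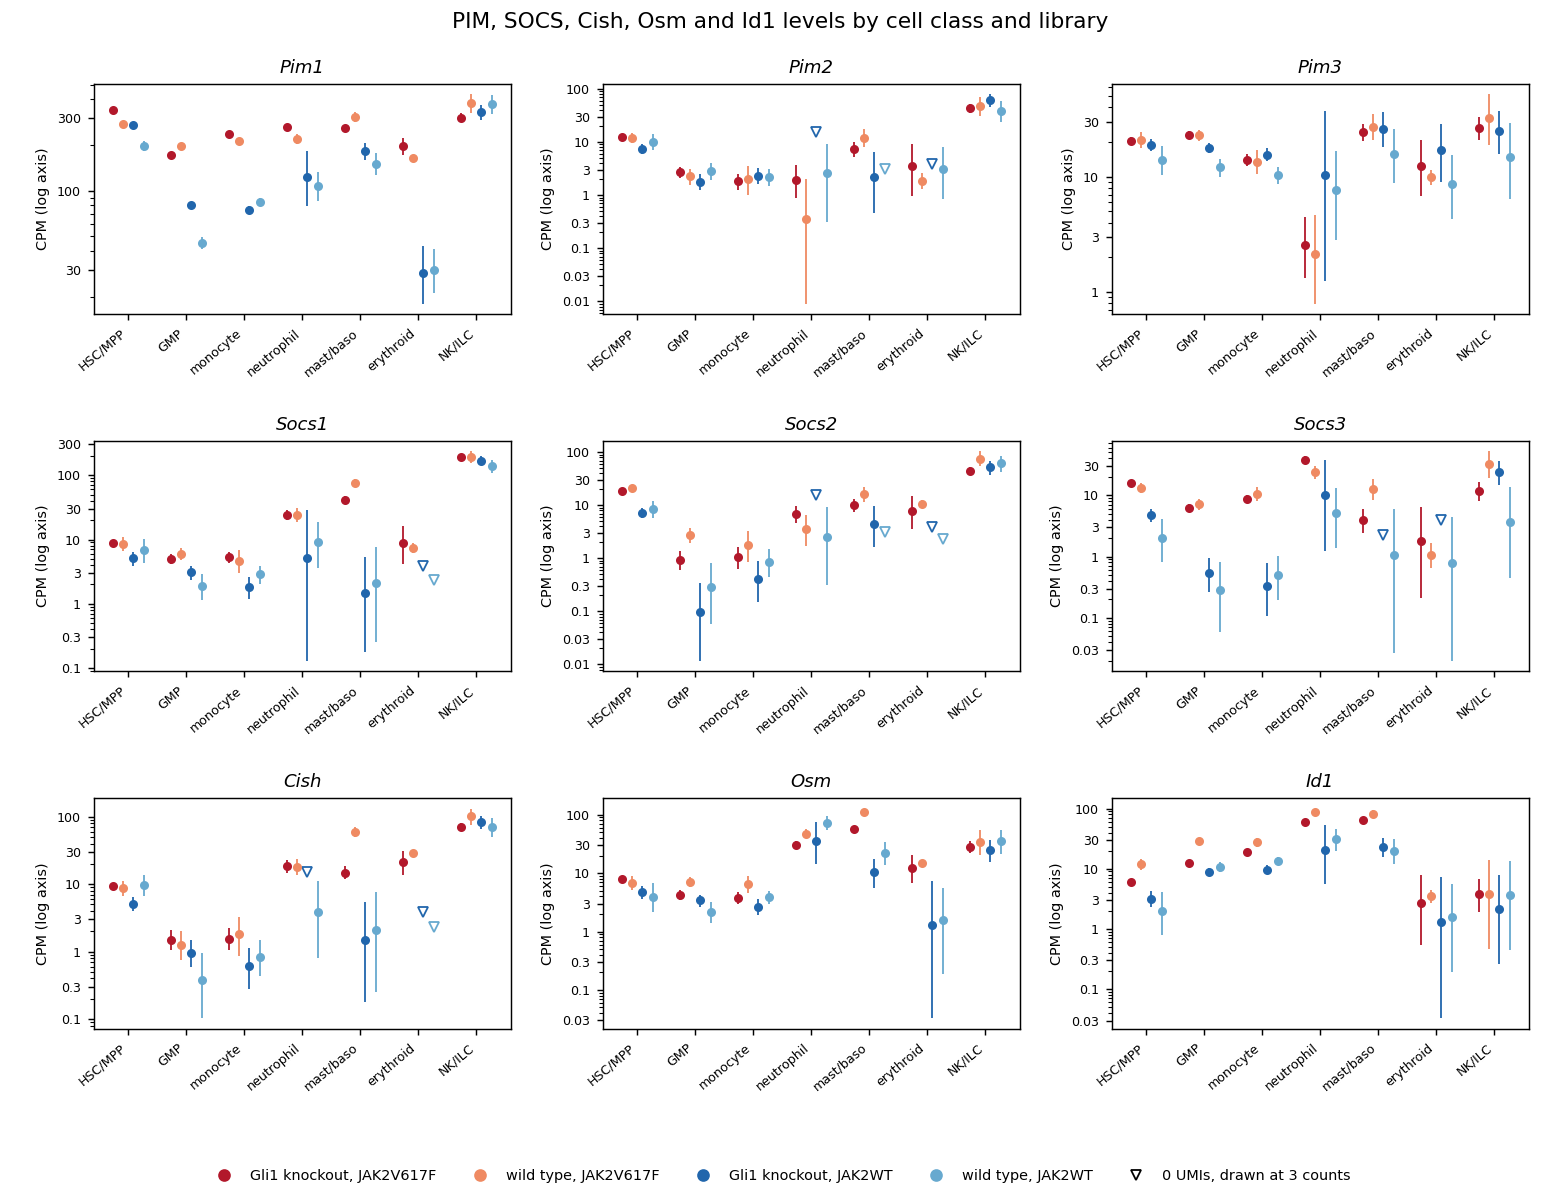
Level of each of the 9 genes in CPM on a log axis across 7 cell classes (x axis), with 1 point per library and its exact 95% Poisson interval; open triangles mark 0 UMIs, drawn at 3 counts. Cish and Socs1 are highest in NK/ILC, and erythroid Cish has points only for the 2 JAK2V617F libraries.

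Among the classes Cish was highest in natural killer and innate lymphoid cells, at 71.5 CPM in knockout JAK2V617F, 101 CPM in wild type JAK2V617F, 82.9 CPM in knockout JAK2WT and 70.8 CPM in wild type JAK2WT marrow. As with Pim1, these 4 values did not separate by kinase. Neutrophils had 18.6 CPM in knockout marrow with JAK2V617F and 0 UMIs with JAK2WT, where 25 cells were present. The measured level was only 1.21-fold that of 3 counts in this control, before its own counting error, so no difference is shown. Wild type neutrophils had 18.3 CPM with JAK2V617F and 3.85 CPM (3 UMIs) with JAK2WT, a ratio of 4.75 (1.54 to 23.8). In HSC/MPP, Cish did not separate the kinases in wild type marrow, with 8.76 CPM under JAK2V617F and 9.66 CPM under JAK2WT, but was 1.81-fold higher (1.39 to 2.38) with JAK2V617F in knockout marrow. Whether the genotypes differ in this was not tested.

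Socs1, which blocks the JAK kinase domain directly, was highest among the 6 classes in natural killer and innate lymphoid cells, although 1 basophil-like cluster described further on exceeded them. Natural killer and innate lymphoid cells had 194 CPM in knockout JAK2V617F, 193 CPM in wild type JAK2V617F, 169 CPM in knockout JAK2WT and 139.8 CPM in wild type JAK2WT marrow. HSC/MPP, GMP and monocytes had under 10 CPM in every library. In monocytes Socs1 was 2.94-fold higher (1.91 to 4.67) with JAK2V617F in knockout marrow, and the wild type ratio was 1.62 (0.952 to 2.71). In GMP the ratio was 1.64 (1.20 to 2.25) in knockout and 3.16 (1.92 to 5.43) in wild type marrow. Erythroid Socs1 measured 8.83 CPM (10 UMIs) in knockout and 7.39 CPM (131 UMIs) in wild type marrow with JAK2V617F, with 0 UMIs in both controls.

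Socs2, a brake on growth hormone and erythropoietin signalling, was highest in natural killer and innate lymphoid, B lineage and stromal cells. In HSC/MPP it measured 18.2 CPM with JAK2V617F and 7.17 CPM with JAK2WT in knockout marrow, a ratio of 2.54 (2.05 to 3.19). In wild type HSC/MPP it measured 20.8 CPM with JAK2V617F and 8.53 CPM with JAK2WT, a ratio of 2.44 (1.65 to 3.74). The 2 genotypes thus gave nearly equal ratios, although the wild type JAK2WT HSC/MPP stood apart in Pf4. Erythroid Socs2 had 9 UMIs in knockout and 191 UMIs in wild type marrow with JAK2V617F and 0 in both controls. The measured wild type level was 4.58-fold that of 3 counts in its control, before its own counting error. Natural killer and innate lymphoid cells had a ratio of 0.853 (0.607 to 1.22) in knockout and 1.24 (0.764 to 2.03) in wild type marrow.

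Socs3, the feedback inhibitor of receptors that signal through gp130 and of the G-CSF receptor, was low in the controls and several-fold higher with JAK2V617F in monocytes, GMP and HSC/MPP. In monocytes it measured 8.64 CPM (166 UMIs) with JAK2V617F and 0.335 CPM (5 UMIs) with JAK2WT in knockout marrow, a ratio of 25.8 (10.8 to 80.6). Wild type monocytes had 10.6 CPM (59 UMIs) with JAK2V617F and 0.493 CPM (7 UMIs) with JAK2WT, a ratio of 21.5 (9.83 to 55.9). Within monocyte cluster 3 the knockout values were 7.60 CPM (127 UMIs) with JAK2V617F and 0.104 CPM (1 UMI) with JAK2WT, a ratio of 73.3 (12.9 to 2918), and the wild type ratio was 22.3 (8.23 to 84.8). In GMP the ratio was 11.8 (6.40 to 24.1) in knockout marrow, on 153 and 11 UMIs. In wild type GMP it rested on 102 UMIs with JAK2V617F and 3 UMIs with JAK2WT, and came to 25.3 (8.40 to 125). HSC/MPP had 16.1 CPM with JAK2V617F and 4.71 CPM with JAK2WT in knockout marrow, and 13.3 CPM with JAK2V617F and 1.99 CPM with JAK2WT in wild type marrow. The control levels of Socs3 were under 5 CPM in all 3 of these classes, and the JAK2V617F libraries lay above them each time.

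Socs3 in natural killer and innate lymphoid cells went in opposite directions in the 2 genotypes. Knockout cells had 11.8 CPM (34 UMIs) with JAK2V617F and 23.7 CPM (22 UMIs) with JAK2WT, while wild type cells had 32.5 CPM (17 UMIs) with JAK2V617F and 3.73 CPM (2 UMIs) with JAK2WT. Erythroid Socs3 was near 0 throughout, at 1.77 CPM (2 UMIs) with JAK2V617F and 0 UMIs with JAK2WT in knockout marrow, and 1.07 CPM (19 UMIs) with JAK2V617F and 0.784 CPM (1 UMI) with JAK2WT in wild type marrow. Mesenchymal stromal cells, of which each library held only 23 to 38, had 672 CPM of Socs3 in knockout JAK2V617F, 198 CPM in wild type JAK2V617F, 144 CPM in knockout JAK2WT and 39.8 CPM in wild type JAK2WT marrow. In knockout stroma, 24 of 31 cells held 104 Socs3 UMIs with JAK2V617F, against 18 of 38 cells and 36 UMIs with JAK2WT. In wild type stroma, 12 of 23 cells held 19 UMIs with JAK2V617F, against 3 of 25 cells and 5 UMIs with JAK2WT. The most in 1 cell was 20 UMIs, in knockout marrow with JAK2V617F. Whether these cells came from donors or recipients was not tested.

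Mast cell and basophil-like cells held the highest Osm and Id1 of the 6 classes under JAK2V617F, and Socs1 and Cish were also high there. Osm measured 56.7 CPM with JAK2V617F and 10.4 CPM with JAK2WT in knockout marrow, and 113 CPM with JAK2V617F and 22.2 CPM with JAK2WT in wild type marrow. Id1 measured 65.8 CPM with JAK2V617F and 23.0 CPM with JAK2WT in knockout marrow, and 81.5 CPM with JAK2V617F and 20.04 CPM with JAK2WT in wild type marrow. These class values mix 2 clusters. Cluster 5, led by the granule genes Prg2 and Cpa3, had 359, 159, 89 and 123 cells in the order knockout JAK2V617F, wild type JAK2V617F, knockout JAK2WT, wild type JAK2WT. Prg2 belongs to the eosinophil marker list, which scored next for cluster 5, 0.397 below the mast cell and basophil list. Whether cluster 5 holds eosinophil-like cells was not tested. Cluster 8, led by the basophil genes Prss34, Fcer1a and Mcpt8 with Ccl6, had 42, 50, 0 and 0, so it was present in the JAK2V617F libraries only.

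In cluster 8, Osm measured 305 CPM (244 UMIs) in knockout and 414 CPM (206 UMIs) in wild type marrow with JAK2V617F. Socs1 measured 243 CPM in knockout and 279 CPM in wild type marrow, Id1 288 CPM and 245 CPM, and Cish 80.0 CPM and 207 CPM in the same order. Pim1 reached 500.2 CPM in knockout and 456 CPM in wild type marrow. All of these levels were above those of cluster 5 in the same libraries.

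Within cluster 5, which all libraries share, the kinases differed much less for Osm and Id1. Osm measured 13.3 CPM (61 UMIs) with JAK2V617F and 10.4 CPM (14 UMIs) with JAK2WT in knockout marrow, a ratio of 1.28 (0.709 to 2.48). In wild type cluster 5 it measured 26.1 CPM (45 UMIs) with JAK2V617F and 22.2 CPM (21 UMIs) with JAK2WT, a ratio of 1.18 (0.688 to 2.08). Both intervals include 1, and cluster 8 held 244 of the 305 Osm UMIs of the class in knockout and 206 of 251 in wild type marrow with JAK2V617F. Id1 in cluster 5 had a ratio of 1.18 (0.789 to 1.81) in knockout and 1.71 (1.00 to 3.03) in wild type marrow. Pim1 in cluster 5 stayed higher with JAK2V617F, with a ratio of 1.19 (1.03 to 1.37) in knockout and 1.75 (1.45 to 2.13) in wild type marrow. Socs1 and Cish in cluster 5 had only 2 UMIs each in either control, against 28 and 16 UMIs in knockout and 30 and 28 UMIs in wild type marrow with JAK2V617F.

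**Figure D3:**
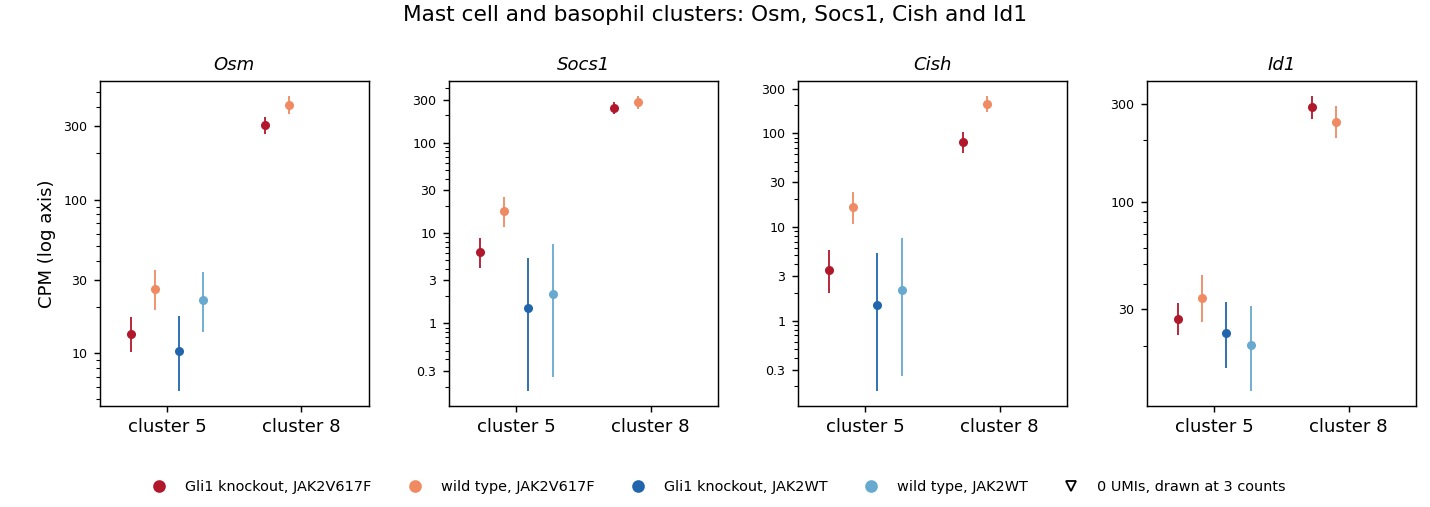
Osm, Socs1, Cish and Id1 in CPM on log axes in mast cell and basophil-like clusters 5 and 8 (x axis), 1 point per library with its exact 95% Poisson interval. Cluster 8 has points only for the JAK2V617F libraries, with Osm at 305 CPM in knockout and 414 CPM in wild type marrow, while the 4 Osm points of cluster 5 lie between 10.4 and 26.1 CPM.

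Sums of erythroid and neutrophil markers were highest in the wild type JAK2V617F library in cluster 5, while in cluster 8 the neutrophil sum was higher in knockout marrow. The cells of origin of these transcripts were not tested. The erythroid list includes Gata1, which lay between 26.4 and 55.8 CPM in the mast cell and basophil-like class. In cluster 5 the 15 erythroid markers summed to 321, 796, 342 and 197 CPM in the order knockout JAK2V617F, wild type JAK2V617F, knockout JAK2WT, wild type JAK2WT, with 3, 0, 2 and 6 markers at 0. The 11 neutrophil markers summed to 366, 1849, 191 and 328 CPM there. In cluster 8 the same neutrophil list summed to 4478 CPM in knockout and 277 CPM in wild type marrow. The part of these transcripts in the levels of the 9 genes was not tested.

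Outside this class Osm was read mainly in neutrophils, in natural killer and innate lymphoid cells and, with JAK2V617F, in erythroid cells. Natural killer and innate lymphoid cells had 28.1 CPM in knockout JAK2V617F, 34.4 CPM in wild type JAK2V617F, 24.8 CPM in knockout JAK2WT and 35.4 CPM in wild type JAK2WT marrow. Neutrophils had less Osm with JAK2V617F, at 30.7 CPM under JAK2V617F and 35.9 CPM (7 UMIs) under JAK2WT in knockout marrow, and 47.4 CPM under JAK2V617F and 73.2 CPM under JAK2WT in wild type marrow. The wild type ratio was 0.647 (0.471 to 0.899), while the knockout interval, 0.405 to 2.17, included 1. Erythroid Osm measured 12.4 CPM (14 UMIs) with JAK2V617F and 1.301 CPM (1 UMI) with JAK2WT in knockout marrow. In wild type erythroid cells it measured 14.8 CPM (263 UMIs) with JAK2V617F and 1.57 CPM (2 UMIs) with JAK2WT, a ratio of 9.47 (2.59 to 78.6). In cluster 10, the erythroid cells low in globin, Osm measured 14.2 CPM in knockout and 21.2 CPM in wild type marrow with JAK2V617F. The receptor subunit Osmr was close to 0 in every library, at 0.0161 CPM or less in the 6 classes together, so Osmr was not detectable in them at this depth.

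Id1 was mainly myeloid, and its class values were higher with JAK2V617F in each myeloid class. Among mast cell and basophil-like cells the controls lacked cluster 8, and within cluster 5 the knockout interval included 1. Neutrophils had 59.7 CPM with JAK2V617F and 20.5 CPM (4 UMIs) with JAK2WT in knockout marrow, and 88.3 CPM with JAK2V617F and 30.8 CPM with JAK2WT in wild type marrow. In GMP the Id1 ratio was 1.41 (1.17 to 1.70) in knockout and 2.65 (2.15 to 3.29) in wild type marrow. Monocytes gave 1.93 (1.58 to 2.35) in knockout and 2.04 (1.64 to 2.53) in wild type marrow. Within monocyte cluster 3 these became 1.57 (1.28 to 1.93) and 1.38 (1.10 to 1.72). In HSC/MPP, Id1 measured 6.03 CPM with JAK2V617F and 3.16 CPM with JAK2WT in knockout marrow, and 11.8 CPM with JAK2V617F and 1.99 CPM (7 UMIs) with JAK2WT in wild type marrow. Erythroid, natural killer and innate lymphoid cells had under 5 CPM of Id1 in every library. Of the clusters of the 6 classes that met the same minimum, all 8 in knockout and all 9 in wild type marrow had more Id1 with JAK2V617F. The interval lay above 1 in 6 of the 8 and in 7 of the 9. Cluster 9 of wild type marrow counts among the 9 on 21 UMIs, where the control held 0 UMIs and the depth gives no bound above 1.

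To compare libraries whose mixtures of cells differ, class levels were averaged with one set of weights, and 10 CPM was added to both values before the log2 ratio. Pim1 standardised in this way measured 253 CPM with JAK2V617F and 156 CPM with JAK2WT in knockout marrow, a log2 ratio of 0.67. In wild type marrow it measured 241 CPM with JAK2V617F and 132 CPM with JAK2WT, a log2 ratio of 0.83. The same ratios for Socs3 were 0.49 in knockout and 0.95 in wild type marrow, for Id1 0.47 and 0.83, for Osm 0.44 and 0.63, and for Cish 0.25 and 0.59. Socs1 gave 0.35 in knockout and 0.55 in wild type marrow, Socs2 0.29 and 0.51, Pim3 0.04 and 0.42, and Pim2 0.03 and 0.13. All 9 ratios were above 0 in both genotypes, but the counting intervals of Pim2 in both and of Pim3 in knockout marrow included 0.

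In knockout marrow 1 of 7 measured members, Pim1, was at least 1.5-fold higher with JAK2V617F and 0 were lower, where 0.653% of 8120 genes were higher and 0.394% lower. The wild type pair had 5 of 8 measured members, Pim1, Socs3, Cish, Osm and Id1, at least 1.5-fold higher and 0 lower, where 3.95% of 8275 genes were higher and 3.17% lower. Measured means 10 CPM or more in at least 1 library of the pair, and over such members the median log2 ratio was 0.35 in knockout (7 members) and 0.61 in wild type marrow (8 members), against -0.01 and 0.03 over all such genes. Socs2, Osm and Id1 reached 10 CPM only with JAK2V617F in both genotypes, as did Socs3 in wild type marrow, so their ratios had to be above 0 and the counts and medians support nothing on their own. Leaving out the mast cells and basophils brought the wild type count to 3, and the knockout count became 0 without the erythroid cells or without the monocytes.

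**Figure D4:**
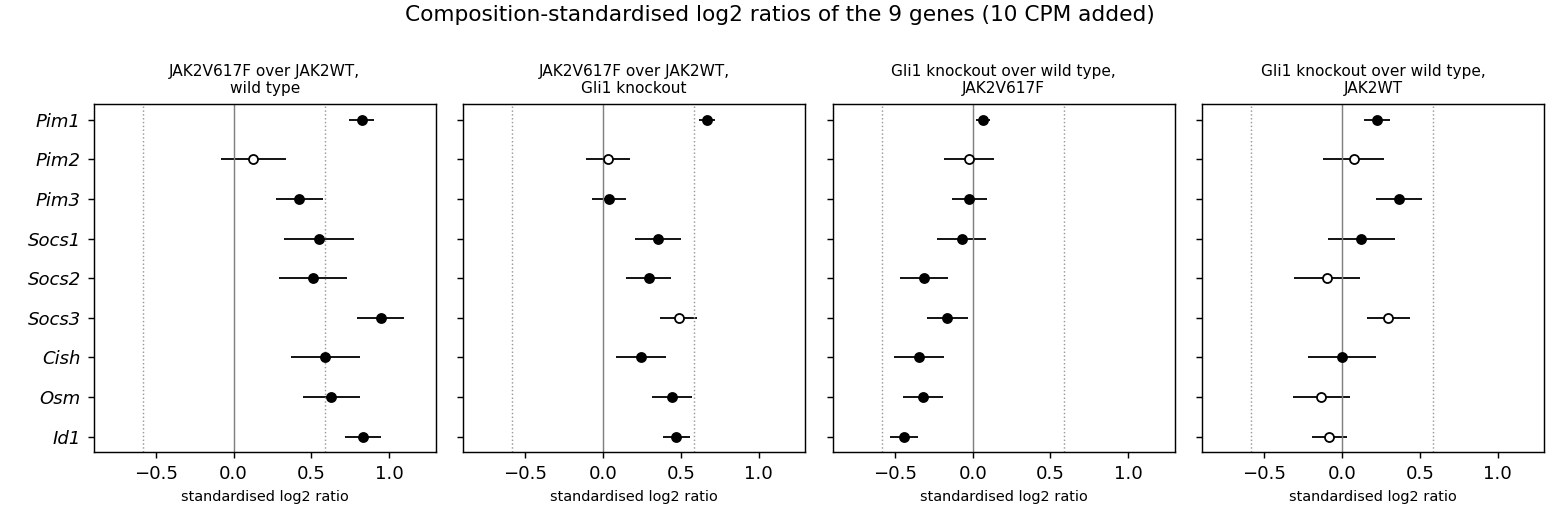
Composition-standardised log2 ratio of each gene (x axis, 10 CPM added) in 4 comparisons, with bars for the 95% counting interval; dotted lines mark 1.5-fold and open circles mark genes under 10 CPM in both libraries. The JAK2V617F over JAK2WT ratios are all above 0, from 0.03 to 0.67 in knockout and from 0.13 to 0.95 in wild type marrow, and no ratio of knockout over wild type reaches 1.5-fold.

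Set against wild type marrow with JAK2V617F, knockout marrow with JAK2V617F had similar Pim1 and less Id1, Cish, Osm and Socs2 after standardisation. Id1 measured 13.2 CPM in knockout and 21.5 CPM in wild type marrow, a log2 ratio of -0.44. Cish measured 13.7 CPM in knockout and 20.2 CPM in wild type marrow (-0.35), Osm 11.6 CPM in knockout and 17.0 CPM in wild type marrow (-0.32), and Socs2 11.4 CPM in knockout and 16.5 CPM in wild type marrow (-0.31). Pim1 had a log2 ratio of 0.07, Pim2 and Pim3 of -0.02, Socs1 of -0.07 and Socs3 of -0.16. With 10 CPM added to both values, not one reached 1.5-fold in either direction. Of the 9 members, 8 were measured at 10 CPM or more. Over all measured genes, 0.576% of 7990 were higher and 0.501% lower. With 1 CPM added instead, the Id1 log2 ratio was -0.67. Handling stress genes were lower in knockout marrow in the same comparison, with a median log2 ratio of -0.39 over 14 genes, Fos at -0.68 and Fosb at -0.72. The part of handling in these ratios was not tested, and the sex of the cells differs with the genotype.

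Counts within single classes took 20 CPM in either library as the minimum. Set against JAK2WT, the mast cell and basophil-like class had 3 of 5 measured members at least 1.5-fold higher in knockout marrow, where 2.3% of genes were, and 5 of 6 in wild type marrow, where 7.98% were. In the erythroid class 2 of 2 were higher in both genotypes, where 7.08% of genes were in knockout and 7.02% in wild type marrow. Erythroid Cish reached 20 CPM only with JAK2V617F, so it had to be higher. In the mast cell and basophil-like class the same held for wild type Cish, for Socs1 and for knockout Osm. The mast cell and basophil-like values also include cluster 8, which the JAK2WT libraries lack. Within cluster 5 the intervals of Osm in both genotypes and of Id1 in knockout marrow included 1, while those of Pim1 lay above 1. Between genotypes, mast cell and basophil-like Socs1, Cish and Osm were at least 1.5-fold lower in knockout marrow, 3 of 6 members measured at 20 CPM, where 1.73% of genes were lower. Of these Cish reached 20 CPM only in wild type marrow, with 14.9 CPM in knockout and 59.0 CPM in wild type marrow, so it had to be lower. By cluster, Cish was 0.215-fold (0.109 to 0.411) in cluster 5 and 0.387-fold (0.279 to 0.534) in cluster 8 in knockout over wild type marrow. Osm was 0.510-fold (0.341 to 0.767) in cluster 5 and 0.737-fold (0.610 to 0.892) in cluster 8. Socs1 was 0.351-fold (0.202 to 0.608) in cluster 5, while in cluster 8 its interval, 0.695 to 1.09, included 1. In GMP, Id1 measured 12.3 CPM in knockout and 28.8 CPM in wild type marrow with JAK2V617F, a ratio of 0.428 (0.368 to 0.498). Cluster 8 was also a smaller part of the class in knockout marrow, 42 of 401 cells, against 50 of 209 in wild type marrow.

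With JAK2WT, knockout over wild type ratios were small for most of the genes. Pim3 measured 18.7 CPM in knockout and 12.3 CPM in wild type marrow, a log2 ratio of 0.36, and Socs3 3.82 CPM and 1.24 CPM, a log2 ratio of 0.30. Pim1 measured 156 CPM in knockout and 132 CPM in wild type marrow, a log2 ratio of 0.22, and within GMP 80.0 CPM and 45.1 CPM. Osm gave -0.13, Socs2 -0.10, Id1 -0.08, Cish 0.00, Pim2 0.07 and Socs1 0.12. With 10 CPM added to both values, none was 1.5-fold apart, although the plain levels of Socs3 and Pim3 differ by more. Of the 9 members, 4 were measured at 10 CPM or more. Over all measured genes, 1.22% of 8267 were higher and 1.17% lower. The 4 comparisons share libraries, so their values are not independent of each other.

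Other genes of the pathway were taken from lists of cytokine receptors, kinases, targets and inhibitors. Of 20 other reported STAT5 or STAT3 targets, 1 was at least 1.5-fold higher with JAK2V617F and 0 lower in knockout marrow (18 measured, median log2 ratio 0.17). Wild type marrow had 6 higher and 0 lower (19 measured, median 0.40). Over all genes 0.653% were higher and 0.394% lower in knockout marrow, and 3.95% and 3.17% in wild type marrow. The medians over all genes were -0.01 and 0.03 in the same order. Any target that reached 10 CPM only with JAK2V617F had to have a ratio above 0. Serpina3g, a serine protease inhibitor, led in both, with log2 ratios of 0.65 in knockout and 1.25 in wild type marrow. Tfrc, the transferrin receptor of iron uptake, gave 0.53 in knockout and 0.92 in wild type marrow, and Junb, an AP-1 factor that is also a handling stress gene, gave 0.19 and 1.13. The cyclin gene Ccnd2 went the other way, at -0.20 in knockout and -0.31 in wild type marrow.

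Upstream of the 9, the genes past 1.5-fold were all in wild type marrow and mostly receptors. In knockout marrow only 0.653% of all genes were higher and 0.394% lower, so 0 in a short list is near those shares. Of 11 JAK and STAT genes, 0 passed 1.5-fold in knockout marrow, and 1, Stat5b, was lower in wild type marrow, with 19.1 CPM under JAK2V617F and 37.2 CPM under JAK2WT. Jak2 measured 36.2 CPM with JAK2V617F and 35.7 CPM with JAK2WT in knockout marrow, and 44.9 CPM with JAK2V617F and 52.6 CPM with JAK2WT in wild type marrow; mutant and normal transcripts were not separated here. Stat5a measured 34.4 CPM with JAK2V617F and 37.7 CPM with JAK2WT in knockout marrow, and 32.6 CPM and 38.6 CPM in wild type marrow. Among 19 measured receptors, 0 passed in knockout marrow, while in wild type marrow 2, Il7r and Csf2rb, were higher and 4, Il6st and Il2rb among them, lower, where 3.95% of all genes were higher and 3.17% lower. Il6st, the gp130 subunit, measured 8.22 CPM with JAK2V617F and 20.2 CPM with JAK2WT in wild type marrow, so it reached 10 CPM only with JAK2WT and had to be lower. Csf2rb, the shared beta chain of the interleukin 3, interleukin 5 and GM-CSF receptors, had log2 ratios of 0.56 in knockout and 0.71 in wild type marrow.

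For comparison with the lists that follow, 0.653% of all genes were higher and 0.394% lower in knockout marrow. In wild type marrow 3.95% were higher and 3.17% lower. Of 18 measured JAK-STAT inhibitors outside the 9, 0 were higher in either genotype and 1, the ubiquitin ligase gene Cbl, was lower in wild type marrow (-0.85). Among 13 measured substrates of the PIM kinases, 0 passed in knockout marrow and 1, the chemokine receptor gene Cxcr4, was lower in wild type marrow (-0.72). Of 7 measured genes of the ID family and BMP signalling, 0 were higher in either genotype, and 1, the BMP receptor gene Bmpr2, was lower in wild type marrow (-0.59). Bmpr2 is named after its value was seen; it reached 10 CPM only with JAK2WT, so it had to be lower. Counts of 0 or 1 in lists of this size cannot be told apart from the shares over all genes. The 8 other ligands of the interleukin 6 family were all under 10 CPM in both comparisons. Handling stress genes had a median log2 ratio of 0.11 in knockout and 0.17 in wild type marrow, with 1 of 16 at least 1.5-fold higher and 2 lower in knockout marrow, and 4 of 16 higher and 1 lower in wild type marrow. The lower ones were the heat shock genes Hspa1a and Hspa1b in knockout and Hspa1b in wild type marrow.

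GFP marks the vector, but its transcript was rarely caught: 59 of 5989, 88 of 3437, 6 of 3799 and 44 of 7226 cells held a GFP UMI, in the order knockout JAK2V617F, wild type JAK2V617F, knockout JAK2WT, wild type JAK2WT. Cells without one are therefore not shown to lack the vector. Only wild type JAK2V617F erythroid cells gave at least 40 on both sides, 41 with and 1199 without a GFP UMI, with median depths of 13203 and 12997 UMIs. Pim1 measured 261 CPM (221 to 305) in the cells with GFP and 161 CPM (155 to 167) in those without. Cish measured 57.5 CPM (39.8 to 80.4) with GFP and 28.5 CPM (26.0 to 31.1) without, and Osm 28.8 CPM (16.8 to 46.1) with GFP and 14.4 CPM (12.6 to 16.3) without. For these 3 the intervals did not overlap, and for the other 6 they did. The cells come from 1 library, so the difference describes it and was not tested.

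Likeness of pattern was measured by Pearson's r across 35 sums of 1 class in 1 library, which share libraries and depth. Pim1 was most like Junb (r = 0.75), Slc9a3r1 and Serpina3g. Cish was most like Socs1 (r = 0.87). Osm was most like Alox5 (r = 0.85), the leukotriene-forming lipoxygenase, and Id1 was most like Flot2 (r = 0.85) and Hdc, the histamine-forming enzyme. Pim2 was most like Gimap5 (r = 0.94), Pim3 like Ss18 (r = 0.85), Socs2 like Mob4 (r = 0.84) and Socs3 like Glipr2 (r = 0.76).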

How the data were processed

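Per the file headers and the submitters' processing notes, the authors deposited raw counts of UMIs for each gene in each called barcode, from Cell Ranger 4.0.0 on mm10; the notes also list Seurat 4.0.4, its use not given in the sources used here. Groups come from the sample titles. The 4 hashing libraries were not analysed here, which leaves the mice within a library unseparated.

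Cells needed 500 genes, 1000 UMIs and a mitochondrial share below 10%. Scrublet (scanpy 1.11.5) scored doublets, and barcodes with the highest scores went, at 0.8% for every 1000 barcodes: 501 in knockout JAK2V617F, 165 in wild type JAK2V617F, 200 in knockout JAK2WT and 761 in wild type JAK2WT. Leiden clustering at resolution 1.0 used 2000 variable genes, 30 components and 15 neighbours, after scaling to 10000 and a log transform, with no batch correction. Names came from 17 marker sets and required a score of 0.5, a margin of 0.2, 3 markers at 50 CPM, 2 of them among the 10 leading genes, and a median of 2000 UMIs. These limits were set with the clusters in view.

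Sums of UMIs over a class or cluster of a library are shown as CPM. Their intervals are exact Poisson, and those of ratios exact conditional. Standardised levels weight the 6 classes by mean share (HSC/MPP 27.6%, GMP 22.9%, monocyte 21.6%, erythroid 12.03%, natural killer and innate lymphoid 9.82%, mast cell and basophil 6.06%). The calculation was tested on simulated data. Other genes named are extremes of their list at 20 CPM or more, or were set by name. Likeness used genes averaging 20 CPM or more. The genes most like Socs1 are not reported here. The 9 genes and all lists were chosen with earlier results of these data known. A level resting on a few UMIs is uncertain several-fold.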

Additional observations from a re-analysis of the deposited data

Results flagged for a closer look

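The log2 ratio of Socs3 in natural killer and innate lymphoid cells, JAK2V617F over JAK2WT, was -0.63 in Gli1 knockout marrow and 1.63 in wild type marrow. It was singled out because the 2 genotypes point in opposite directions. It rests on 34 UMIs with JAK2V617F and 22 UMIs with JAK2WT in knockout marrow, and on 17 UMIs and 2 UMIs in wild type marrow. With 1 library per group the difference was not tested.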

How the results depend on the processing

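No paired analysis was possible because each group is 1 library and no result comes from a test; for the same reason no replicate could be left out. Over 16 alternatives the standardised Pim1 ratio stayed above 0, between 0.50 and 0.87 in knockout and between 0.64 and 1.02 in wild type marrow. With sums over all cells the wild type ratios of Pim2, Socs1 and Socs2 fell to -0.22, -0.04 and -0.10. The knockout ratios of Pim2 and Pim3 also went below 0 under some alternatives, to -0.12 and -0.03 at the lowest. Counts at least 1.5-fold higher depend on the pseudocount and on the classes used. In wild type marrow (5 members) the count was 8 with 1 CPM and 1 with 50 CPM added, 3 with the stricter cell filter (which left 5 classes, without erythroid cells), 3 with classes of at least 100 cells, 3 without mast cells and basophils, and 1 at a minimum of 50 CPM. In knockout marrow (1 member) it was 3 with 1 CPM and 0 with 50 CPM added, 3 with equal class weights, 5 with sums over all cells, and 0 with classes of at least 100 cells, without the erythroid or the monocyte class, and over single clusters, an alternative added after seeing the data. Under JAK2V617F 1 member became lower in knockout than in wild type marrow with 1 CPM added. The wild type median of JAK2V617F over JAK2WT became 0.90 with 1 CPM and 0.24 with 50 CPM added, 0.42 with classes of at least 100 cells and 0.83 at a minimum of 50 CPM. The knockout median became 0.55 and 0.14 with those pseudocounts, 0.60 with sums over all cells, 0.17 over single clusters and 0.67 at 50 CPM. The median of knockout over wild type with JAK2V617F (-0.24) became -0.40 and -0.086 with those pseudocounts, 0.11 with sums over all cells, -0.39 without HSC/MPP and 0.066 at 50 CPM. With JAK2WT the median (0.17) became 0.032 with the stricter filter, 0.27 with doublets kept, 0.0086 with sums over all cells, 0.35 without natural killer and innate lymphoid cells and 0.074 at a minimum of 1 CPM. The cause of these shifts was not tested.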
